A study of Mus musculus with 6 samples.

Results

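The 10 genes described here encode the core of the basement membrane and helpers of its assembly. They are the laminin chains Lama1, Lamb1 and Lamc1, the collagen IV chains Col4a1 and Col4a2, the nidogens Nid1 and Nid2, perlecan (Hspg2), the collagen-binding matrix protein Sparc and the collagen chaperone Serpinh1. They were found by matching these symbols to the Ensembl gene identifiers of the deposited table, and all 10 of 10 were present among its 22933 genes. RNA came from mouse embryonic stem cells carrying floxed alleles (Ezh2 fl/fl) of Ezh2, the gene of the catalytic subunit of Polycomb repressive complex 2. One group of 3 libraries came from cells given 4-hydroxytamoxifen at 800 nM for 96 h and collected 4 days after treatment, labelled Ezh2 KO and, in the treatment notes, Ezh2 Δ/Δ. The other 3 libraries came from the same floxed cells without tamoxifen, which the labels call Ezh2 wild type. The cells were grown on gelatin with serum, knockout serum replacement and leukaemia inhibitory factor. The labels do not name the recombinase or the deleted exons. Tamoxifen-treated cells without floxed Ezh2 were not analysed here, so effects of the drug and of the deletion cannot be told apart. Nothing in the labels says that replicates came from different cultures, and p-values therefore measure only the spread between these libraries, which may be technical.

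A basement membrane is a thin sheet of extracellular matrix under epithelia. Laminin trimers polymerise on the cell surface, collagen IV forms a covalently linked network, and nidogens and perlecan connect the networks. In the early mouse embryo the primitive endoderm and its parietal derivative are known as rich sources of laminin, collagen IV and Sparc, and embryonic stem cells make them as well.

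Ezh2 itself, counted over the whole gene, had deposited values of 2258, 2559 and 2609 in the tamoxifen libraries, against 4165, 3620 and 3483 in the untreated libraries. The groups did not overlap, but RNA of the gene was still present after tamoxifen and the difference was not called (log2 fold change -0.60 ± 0.13 SE, limma adjusted p 0.157). Read numbers were inferred from the form of the deposited values alone. The labels do not describe this normalization, and every read number, RPM and depth given here rests on that inference. On reads inferred in this way the Ezh2 log2 fold change was -0.40. Read totals inferred in this way came to 2334368 to 5110226 per tamoxifen library and 2678142 to 5689576 per untreated library. The 10 most abundant genes took 20.2% to 32.4% of the reads in the tamoxifen libraries and 22.0% to 36.7% in the untreated libraries. The basement membrane genes were well covered, with 59 to 2847 reads per gene and library, and all 10 passed the filter of 10 reads on average.

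All 10 genes had higher mean values in tamoxifen-treated than in untreated cells, and none passed the test across all genes. Log2 fold changes of the deposited values, taken after adding 1, ran from 0.41 for Nid2 to 1.27 for Col4a2, with a median of 0.82. The median over all 11839 genes tested was -0.012. Of those genes 0.127% were called at a limma adjusted p under 0.05, 0.11% higher (13 genes) and 0.0169% lower (2 genes). Leaving out any 1 library left 0 or 1 genes called in all. None of the 10 members was called, with limma adjusted p between 0.0692 and 0.396. All 10 had an unadjusted p under 0.05, which 6.85% of genes tested met in the higher and 5.12% in the lower direction. In 8 of the 10 every tamoxifen value lay above every untreated value, a separation that 9.49% of genes tested showed in the higher and 8.89% in the lower direction. The exact permutation p of each of these 8 (two-sided) was 0.1, which is the lowest value possible with 3 libraries in each group, and that of Lamc1 and Nid1 was 0.2. In bulk RNA a larger share of cells making these transcripts and more transcript per cell cannot be told apart.

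**Figure D1:**
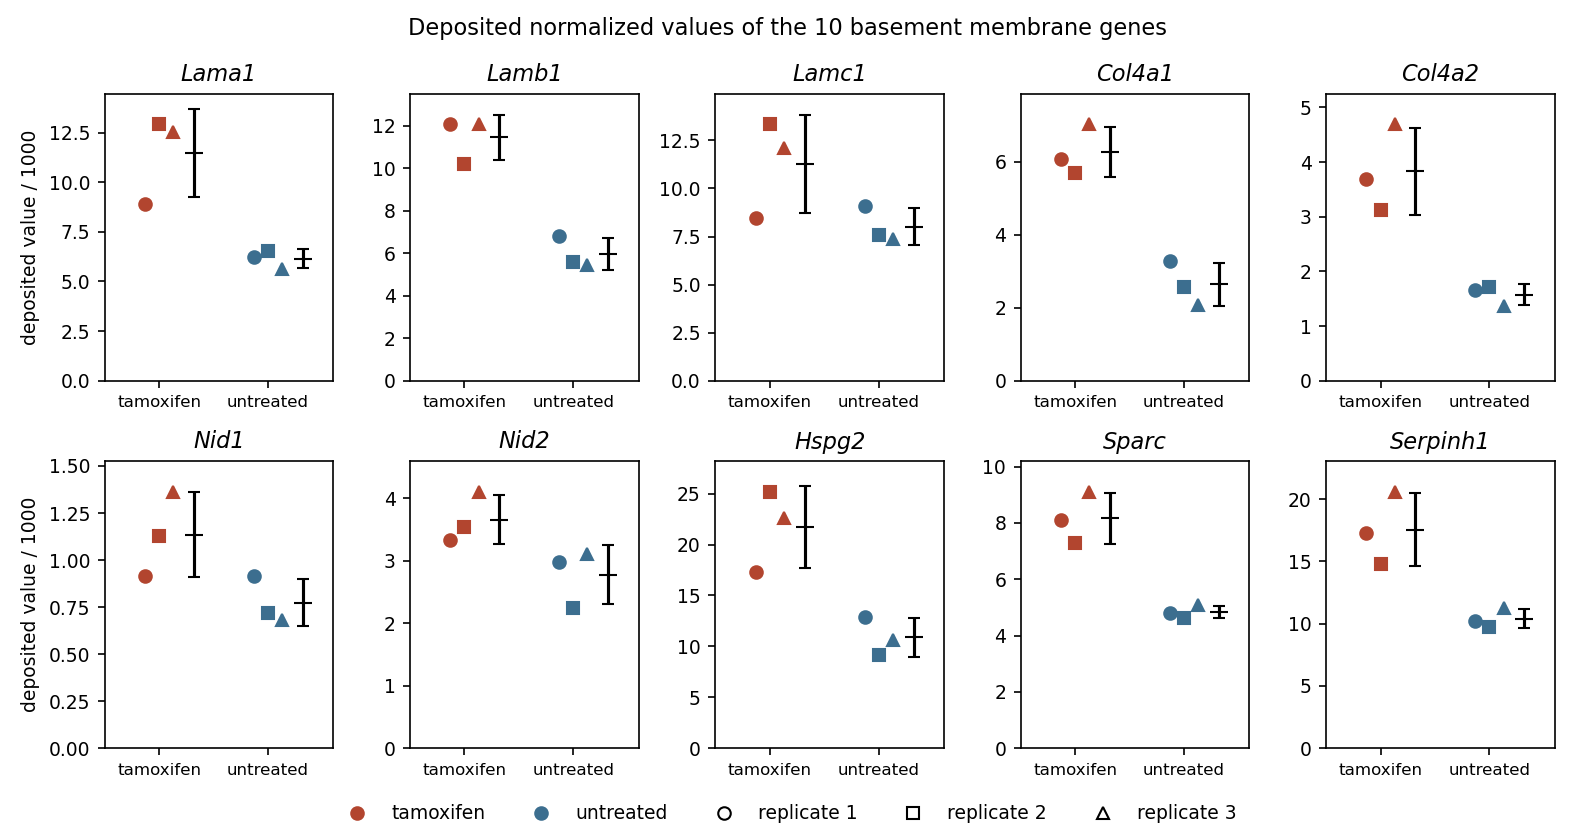
Deposited normalized values (vertical axes, divided by 1000 and each starting at 0) of the 10 genes in 3 tamoxifen and 3 untreated libraries. Symbols are replicates and the black marks are the mean with its SD (n = 3). The groups overlap for Lamc1 and Nid1, and the other 8 genes have every tamoxifen value above every untreated one.

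Promoter sequence was at hand for 7 of the 10 genes, in windows of 300 bases from 250 before to 50 after the RefSeq start on GRCm38.p6. Lama1, Lamc1 and Nid2 had no entry. The windows were rich in G and C, from 55.3% in Sparc to 74.0% in Col4a1, against a median of 52.7% over all 32851 windows. The letters GGGCGG, the core of the GC box, occurred on either strand in 6 of the 7 windows, against 35.7% of all windows. The Hspg2 window held 5 copies, Col4a2 held 3, Lamb1 held 2, and Col4a1, Nid1 and Serpinh1 held 1 each. The letters CCAAT, on either strand, were in 4 of the 7 (Lamb1, Col4a1, Col4a2 and Nid1), against 37.4% of all windows. GATAA, the core recognised by GATA factors, was in 0 of the 7 on either strand, against 25.4% of all windows. The shares over all windows were not matched for G and C. These counts therefore cannot be told apart from the base composition of the windows. Col4a1 and Col4a2 are transcribed away from each other from starts that overlap by 22 bases on chromosome 8, from 11312805 to 11312826. Their windows therefore share bases and are not separate examples. The library kit marks strand, but whether counting used it is not given in the sources used here, and without strand reads on those 22 bases could belong to either gene. Upstream sequences of a laminin chain, perlecan and the collagen chaperone are printed to show the GC-box letters as they lie before the start. They run 5′ to 3′ on the coding strand and stop before the first annotated exon, with GGGCGG or its reverse complement in capitals. They cover chr12:31265043-31265233 (plus strand), chr4:137468553-137468768 (plus strand) and chr7:99353240-99353489 (minus strand).
Lamb1: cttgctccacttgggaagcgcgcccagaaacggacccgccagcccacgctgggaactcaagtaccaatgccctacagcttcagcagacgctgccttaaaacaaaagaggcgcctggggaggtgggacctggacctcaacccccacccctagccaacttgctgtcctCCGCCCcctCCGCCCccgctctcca
Hspg2: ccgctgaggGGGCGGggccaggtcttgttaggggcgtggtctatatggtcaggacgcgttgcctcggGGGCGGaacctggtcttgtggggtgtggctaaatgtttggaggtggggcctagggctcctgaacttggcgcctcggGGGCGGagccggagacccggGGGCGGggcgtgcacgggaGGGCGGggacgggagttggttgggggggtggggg
Serpinh1: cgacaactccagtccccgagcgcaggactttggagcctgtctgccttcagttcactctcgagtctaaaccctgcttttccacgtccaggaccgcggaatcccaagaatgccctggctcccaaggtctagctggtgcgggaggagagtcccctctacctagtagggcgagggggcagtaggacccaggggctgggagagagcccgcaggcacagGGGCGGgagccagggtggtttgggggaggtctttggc

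The laminin chains form the trimer that starts a basement membrane. Lama1 (ENSMUSG00000032796, chromosome 17 from 67697259 to 67822647 on GRCm38), whose chain carries the domains that bind cell-surface receptors, had deposited values of 8914, 12923 and 12554 in the tamoxifen libraries, against 6258, 6559 and 5624 in the untreated libraries. Lamb1 (ENSMUSG00000002900, chromosome 12 from 31265234 to 31329644) had 12077, 10228 and 12077 in the tamoxifen libraries, against 6822, 5577 and 5449 in the untreated libraries. Both chains were higher in every tamoxifen library, with fold changes of 0.88 ± 0.17 for Lama1 and 0.95 ± 0.15 for Lamb1 on the log2 scale (SE, limma adjusted p 0.130 and 0.0769). Lamc1 (ENSMUSG00000026478, chromosome 1 from 153218922 to 153332786), the gamma chain found in most laminin trimers, had 8447, 13342 and 12087 in the tamoxifen libraries, against 9109, 7572 and 7366 in the untreated libraries. Tamoxifen replicate 1 lay below untreated replicate 1, so the Lamc1 groups overlapped on deposited values, and the log2 fold change was 0.47 ± 0.20 (SE, limma adjusted p 0.396). It was 0.67 without tamoxifen replicate 1 and 0.34 without tamoxifen replicate 2. Summed over the chains, laminin took 1091, 1447 and 1500 of every 1000000 recovered reads (RPM) in the tamoxifen libraries, against 851, 624 and 473 in the untreated libraries (fold of means 2.07, two-sided exact permutation p = 0.1). On summed deposited values the fold of means was smaller, at 1.70.

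The collagen IV chains showed the largest differences of the 10 genes. Col4a1 (ENSMUSG00000031502, chromosome 8 from 11198423 to 11312826) had deposited values of 6072, 5683 and 7027 in the tamoxifen libraries, against 3270, 2560 and 2082 in the untreated libraries. Col4a2 (ENSMUSG00000031503, chromosome 8 from 11312805 to 11449287), the partner chain in the same protomer, had 3698, 3114 and 4691 in the tamoxifen libraries, against 1654, 1713 and 1361 in the untreated libraries. In both genes all tamoxifen libraries lay above all untreated libraries. Col4a1 averaged 6261 ± 691 in the tamoxifen libraries and 2637 ± 598 in the untreated libraries, and Col4a2 averaged 3834 ± 797 in the tamoxifen libraries and 1576 ± 188 in the untreated libraries (SD, n = 3). The log2 fold change was 1.27 ± 0.19 for Col4a1 and 1.27 ± 0.18 for Col4a2 (SE), with 95% intervals from 0.83 to 1.70 and from 0.84 to 1.69. By p the pair ranked 28 and 24 of 11839 genes tested, and their limma adjusted p of 0.0710 and 0.0692 missed the threshold. Col4a1 rested on 479 to 1227 reads in the tamoxifen libraries and 116 to 404 in the untreated libraries, and Col4a2 on 240 to 714 reads in the tamoxifen libraries and 67 to 239 in the untreated libraries. On recovered reads the fold changes were of the same size, 1.34 and 1.28 (limma adjusted p 0.0609 and 0.0922).

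The linkers between the networks differed less evenly. Hspg2 (ENSMUSG00000028763, chromosome 4 from 137468769 to 137570630), a heparan sulfate proteoglycan, had 17272, 25183 and 22616 in the tamoxifen libraries, against 12923, 9109 and 10645 in the untreated libraries. Every tamoxifen value was higher, at a log2 fold change of 0.99 ± 0.20 (SE, limma adjusted p 0.130). Nid1 (ENSMUSG00000005397, chromosome 13 from 13437551 to 13512269), which binds the laminin gamma chain, had 915, 1129 and 1363 in the tamoxifen libraries, against 915, 721 and 681 in the untreated libraries. The lowest tamoxifen and the highest untreated Nid1 values thus lay side by side, and the log2 fold change was 0.55 ± 0.20 (SE, limma adjusted p 0.346). Nid2 (ENSMUSG00000021806, chromosome 14 from 19751265 to 19811787), its paralogue, had 3338, 3542 and 4107 in the tamoxifen libraries, against 2988, 2239 and 3114 in the untreated libraries. The Nid2 groups were separate but close, and its fold change of 0.41 ± 0.17 (SE, limma adjusted p 0.392) was the lowest of the 10.

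Sparc and Serpinh1 assist collagen rather than build the sheet. Sparc (ENSMUSG00000018593, chromosome 11 from 55394500 to 55423183), a secreted protein that binds collagen, had deposited values of 8096, 7298 and 9109 in the tamoxifen libraries, against 4817, 4633 and 5079 in the untreated libraries. Serpinh1 (ENSMUSG00000070436, chromosome 7 from 99345376 to 99353239), a chaperone of the endoplasmic reticulum that binds folded procollagen, had 17272, 14789 and 20591 in the tamoxifen libraries, against 10227, 9712 and 11256 in the untreated libraries. In both genes the untreated libraries lay close together and below all tamoxifen libraries. The log2 fold changes were 0.75 ± 0.13 for Sparc and 0.74 ± 0.16 for Serpinh1 (SE, limma adjusted p 0.0957 and 0.156).

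The libraries of a group were not alike in these genes. Within the tamoxifen group, replicate 3 held the highest value of 7 genes and replicate 2 that of the other 3 (Lama1, Lamc1 and Hspg2), while replicate 1 held none. Within the untreated group, replicate 3 held the lowest value of 6 genes and replicate 2 that of the other 4 (Nid2, Hspg2, Sparc and Serpinh1). The 10 genes together took 0.202%, 0.273% and 0.300% of the reads in the tamoxifen libraries, against 0.161%, 0.135% and 0.0998% in the untreated libraries (two-sided exact permutation p = 0.1). A share of all reads also depends on what other genes take, and the 10 most abundant took 36.7% in untreated replicate 3. Summed deposited values of the 10 genes were 86102, 97231.5 and 106222 in the tamoxifen libraries, against 58982, 50393 and 52657 in the untreated libraries.

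The deposited values carry an adjustment per gene and library, so the same genes were also compared on the recovered reads. With reads scaled by 1 median-ratio factor per library, the members' median log2 fold change was 0.53, from 0.24 to 1.34. All 10 were still above 0 and none was called (smallest limma adjusted p 0.0609), and 7 of the 10 had an unadjusted p under 0.05, which 5.16% of genes tested met in the higher direction. On these reads 7 of the 10 groups did not overlap, against 7.31% of genes tested. Lamc1, which overlapped on deposited values, was among the 7. Nid1 overlapped on both scales, and Nid2 and Serpinh1 overlapped on reads only. Serpinh1 stood at 0.35 on reads and 0.74 on deposited values, Hspg2 at 0.55 and 0.99, Sparc at 0.48 and 0.75, and Nid2 at 0.24 and 0.41. Lama1 was larger on reads, with 1.17 on reads and 0.88 on deposited values. The deposited value per scaled read differed between libraries. For Serpinh1 it was 24.2, 27.0 and 25.0 in the tamoxifen libraries, against 24.8, 15.3 and 18.8 in the untreated libraries. For Lama1 it was 5.26, 8.51 and 7.24 in the tamoxifen libraries, against 8.00, 9.0 and 8.13 in the untreated libraries. Untreated replicates 2 and 3 were low for Serpinh1 and tamoxifen replicate 1 was low for Lama1. On the log2 scale the group difference of this factor was 0.40 for Serpinh1, 0.44 for Hspg2 and -0.28 for Lama1. Its 5th and 95th percentiles over 11736 genes were -0.35 and 0.31. It was -0.078 for Col4a1, -0.012 for Col4a2 and -0.028 for Lamc1, and the collagen IV difference was as large on reads as on deposited values. What sets this factor was not tested.

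**Figure D2:**
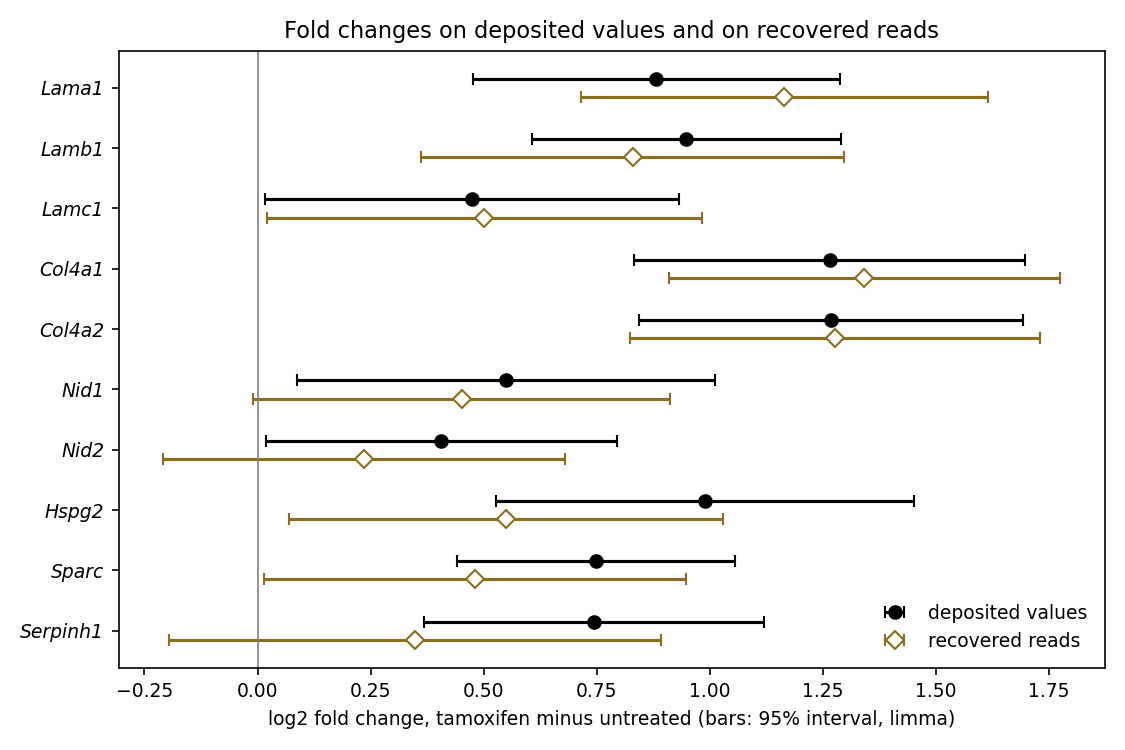
Log2 fold changes (horizontal axis, tamoxifen minus untreated) of the 10 genes with 95% limma intervals. Filled circles use the deposited values and open diamonds the recovered reads. Col4a1 and Col4a2 sit near 1.3 on both, while Nid1, Nid2 and Serpinh1 have intervals on reads that include 0.

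Levels could be compared between genes only per length, as RPM per kb of merged exon, and part of their order depended on the length used. Serpinh1 was the highest on this scale, with 67.7, 77.2 and 108 in the tamoxifen libraries, against 51.9, 67.3 and 44.6 in the untreated libraries. Lamc1 (58.7 ± 13.3 tamoxifen, 34.7 ± 10.3 untreated) and Sparc (56.1 ± 10.1 tamoxifen, 33.6 ± 7.92 untreated) followed and could not be ordered, since each was above the other in 3 of 6 libraries (SD, n = 3). Lama1 (50.7 ± 8.98 tamoxifen, 19.1 ± 5.92 untreated) lay below Sparc and above Lamb1 (37.3 ± 3.10 tamoxifen, 17.8 ± 5.18 untreated) in all 6 libraries. Col4a1 averaged 27.2 ± 5.16 in the tamoxifen libraries and 9.16 ± 3.20 in the untreated libraries, and Nid2 averaged 25.2 ± 6.24 in the tamoxifen libraries and 17.7 ± 4.82 in the untreated libraries. Their order differed between the groups, with Col4a1 above Nid2 in 2 of 3 tamoxifen libraries and 0 of 3 untreated ones. Hspg2 (22.7 ± 6.50 tamoxifen, 12.5 ± 1.43 untreated) lay below Nid2 and above Col4a2 (16.2 ± 4.62 tamoxifen, 5.53 ± 1.52 untreated) in all 6 libraries. Nid1 was the lowest at 8.06 ± 2.47 in the tamoxifen libraries and 4.96 ± 1.99 in the untreated libraries, below Col4a2 in 5 of 6 libraries. Merged exons can be much longer than the main transcript, so the levels were also taken per kb of the longest coding transcript, a scale chosen after seeing the data. On it Sparc had 75.4, 92.9 and 109 in the tamoxifen libraries, against 57.5, 67.0 and 41.2 in the untreated libraries. Serpinh1 had 72.7, 82.9 and 117 in the tamoxifen libraries, against 55.8, 72.3 and 47.9 in the untreated libraries, so that it lay above Sparc in 3 of 6 libraries and the top place could not be given to either. Sparc lay above Lamc1 in all 6 libraries. Lamb1 averaged 63.9 ± 5.32 in the tamoxifen libraries and 30.6 ± 8.88 in the untreated libraries, above Lama1 in all 6 libraries, the reverse of their order per kb of merged exon. Col4a1 lay above Nid2 in 3 of 3 tamoxifen libraries and 0 of 3 untreated ones.

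**Figure D3:**
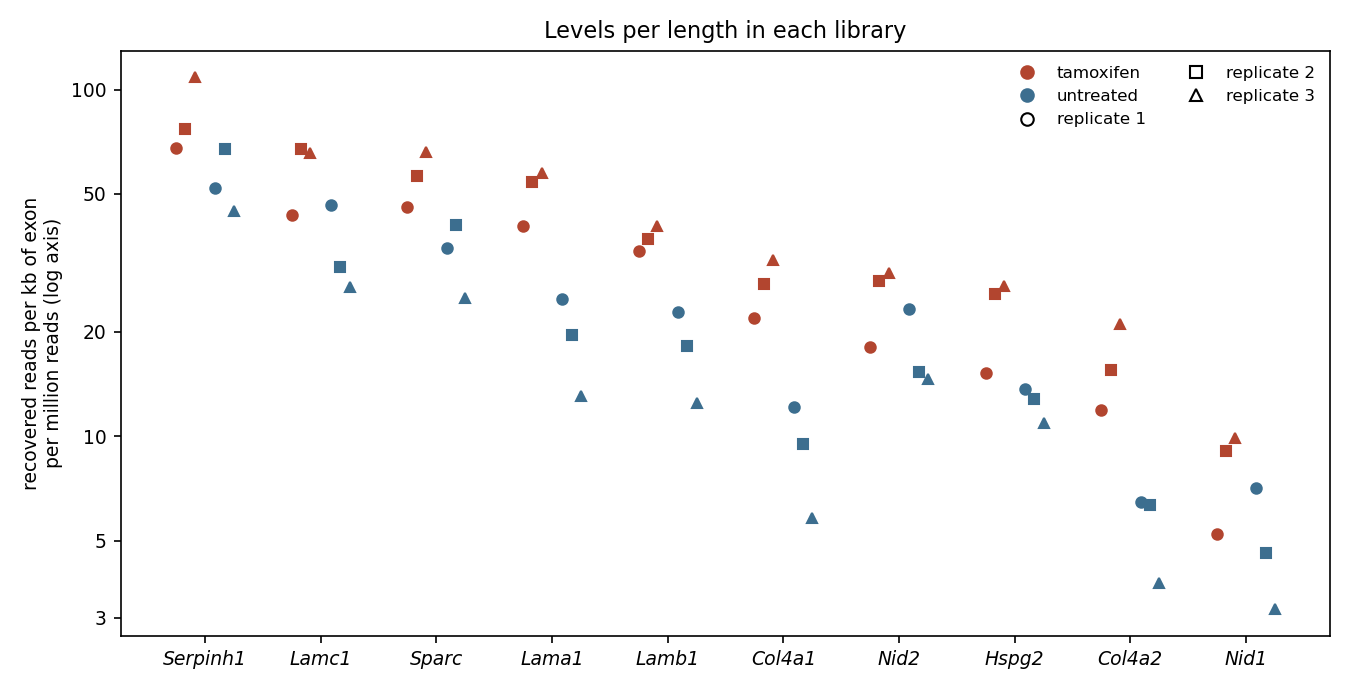
Recovered RPM per kb of merged exon (vertical axis, log scale) for the 10 genes, ordered by their mean in the tamoxifen libraries. Each symbol is 1 library. On this length scale Serpinh1 is the highest in every library, which does not hold per transcript length, and Col4a1 lies above Nid2 in 2 of 3 tamoxifen libraries and 0 of 3 untreated ones.

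Ratios between members were taken within each library, 8 in all, where a scaling factor of the whole library has no effect, although the adjustment per gene does. For the partners Col4a1 and Col4a2 the ratio overlapped between the groups. Its log2 value on deposited values was 0.72, 0.87 and 0.58 in the tamoxifen libraries, against 0.98, 0.58 and 0.61 in the untreated libraries, a difference of -0.0027 (two-sided exact permutation p = 1.0), and of 0.065 on recovered reads. Per length, Col4a1 had 1.71 ± 0.16 times the reads of Col4a2 in the tamoxifen libraries and 1.64 ± 0.21 times in the untreated libraries (SD, n = 3). The partners of Lamc1 were set against it next. Lama1 to Lamc1 had log2 ratios of 0.078, -0.046 and 0.055 in the tamoxifen libraries, against -0.54, -0.21 and -0.39 in the untreated libraries, a difference of 0.41 on deposited values and 0.66 on reads. Lamb1 to Lamc1 had 0.52, -0.38 and -0.0012 in the tamoxifen libraries, against -0.42, -0.44 and -0.43 in the untreated libraries. Its difference of 0.47 was 0.24 without tamoxifen replicate 1, which was far the highest, and 0.33 on reads. Lama1 to Lamb1 differed by -0.067 on deposited values (two-sided exact permutation p = 0.9) and by 0.34 on recovered reads, so its direction depended on the normalization. The collagen helpers were lower relative to Col4a1 after tamoxifen. Sparc to Col4a1 had log2 ratios of 0.41, 0.36 and 0.37 in the tamoxifen libraries, against 0.56, 0.86 and 1.29 in the untreated libraries, a difference of -0.52. Serpinh1 to Col4a1 had 1.51, 1.38 and 1.55 in the tamoxifen libraries, against 1.64, 1.92 and 2.43 in the untreated libraries, also a difference of -0.52. On recovered reads these differences were -0.86 for Sparc and -0.99 for Serpinh1. Without untreated replicate 3, the highest of its group in both ratios, they were -0.32 and -0.30 on deposited values. Hspg2 to Lamc1 differed by 0.52 on deposited values but by 0.049 on reads, and Nid1 to Nid2 by 0.14. On deposited values 5 of the 8 ratios had groups that did not overlap, each at a two-sided exact permutation p of 0.1, which became 0.16 after Benjamini-Hochberg adjustment over the 8, so none passed. On reads 2 of these 5 overlapped, with a two-sided exact permutation p of 0.2 for Lamb1 to Lamc1 and 0.9 for Hspg2 to Lamc1. Lama1 to Lamb1 did not overlap on reads (exact permutation p = 0.1), so that 4 of the 8 were apart there.

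**Figure D4:**
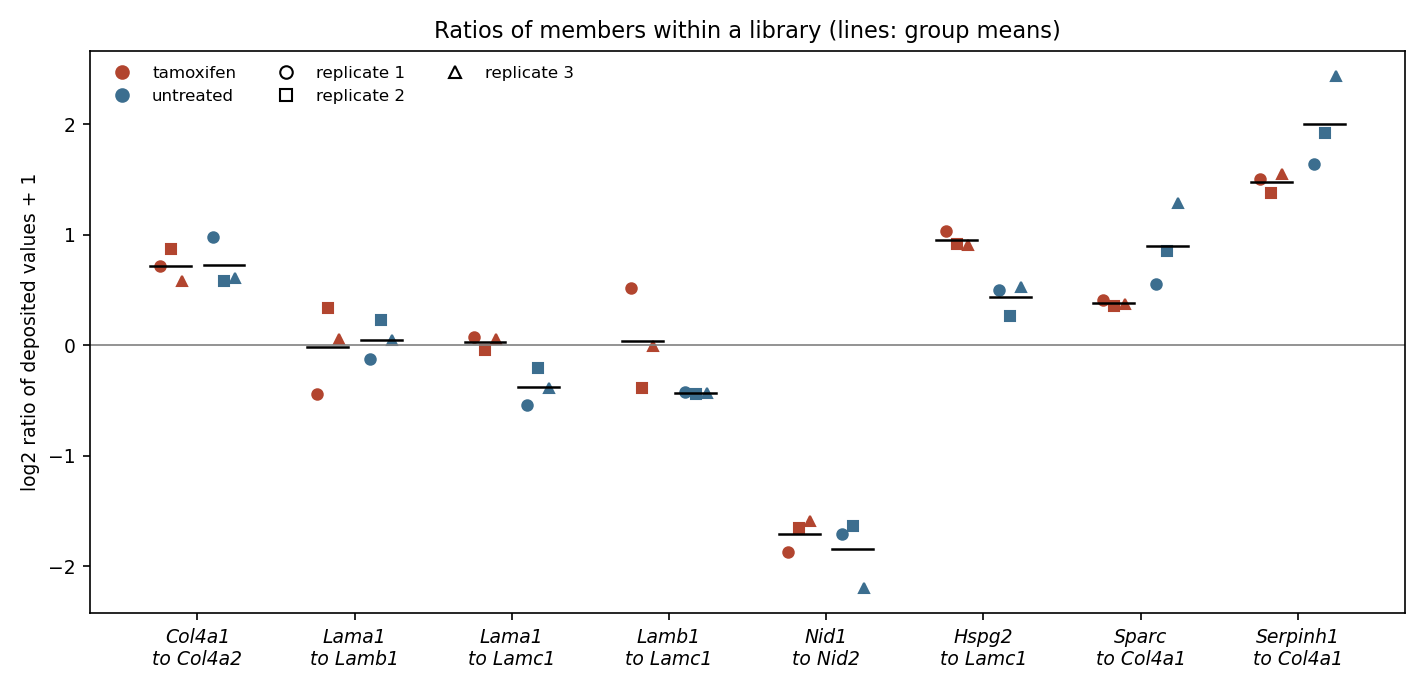
Log2 ratios of pairs of members within each library (vertical axis, deposited values + 1), with lines at the group means. The tamoxifen and untreated libraries overlap for Col4a1 to Col4a2, Lama1 to Lamb1 and Nid1 to Nid2, and are apart for the other 5 pairs.

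The remaining laminin chains lay on both sides of 0. Of 8 other laminin chains 6 were tested, 4 above and 2 below 0, with a median log2 fold change of 0.24 and 0 called. Lama5, the alpha chain that joins Lamb1 and Lamc1 in the early embryo, had 12922, 13681 and 11464 in the tamoxifen libraries, against 10081, 4847 and 5935 in the untreated libraries, at 0.93 on deposited values and 0.40 on reads. Lama2 and Lama3 stood at -0.62 and -0.50, both with overlapping groups. Of the other collagen IV chains only Col4a3 reached 10 reads on average, and its untreated libraries spanned 88 to 3347. Col4a5 had 6, 8 and 21 reads in the tamoxifen libraries, against 5, 4 and 1 in the untreated libraries. Col4a6 had 2, 6 and 13 reads in the tamoxifen libraries, against 3, 10 and 0 in the untreated libraries, and Col4a4 had at most 4 in any library, too few for a test.

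Other proteins of the basement membrane lay mostly above 0. Of 19 such genes 12 were tested, 10 above and 2 below 0, with a median of 0.27 and 0 called. Tinagl1, a matricellular glycoprotein, had 1039, 1320 and 1430 in the tamoxifen libraries, against 474, 739 and 384 in the untreated libraries (1.29 ± 0.26 SE, limma adjusted p 0.130). Frem2, of the Fraser complex that anchors epithelia, stood lower, with 68.8, 39.7 and 59.2 in the tamoxifen libraries, against 351, 166 and 272 in the untreated libraries (-2.19 ± 0.38 SE, limma adjusted p 0.0943). Fbln2, a fibulin, stood at 1.0 and Agrn, the proteoglycan agrin, at 0.42. On recovered reads Tinagl1 stood at 1.49, Frem2 at -1.15, Fbln2 at 0.74 and Agrn at 0.19.

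Genes for folding and export of collagen had a median fold change close to that of the other matrix lists. Of 25 listed genes 24 were measured and 21 tested, with 15 above and 6 below 0, a median of 0.21 and 0 called. In 7 of the 21 all tamoxifen values lay above the untreated ones, which held for 9.49% of all genes tested. P4ha2, a prolyl hydroxylase subunit, had 1343, 759 and 1217 in the tamoxifen libraries, against 662, 613 and 680 in the untreated libraries (0.72 ± 0.23 SE, limma adjusted p 0.278). Plod2, a lysyl hydroxylase, had 1801, 1032 and 1742 in the tamoxifen libraries, against 945, 1003 and 720 in the untreated libraries (0.75 ± 0.25 SE, limma adjusted p 0.304). Creb3l2, a transcription factor of the secretory pathway, stood at 1.93 (limma adjusted p 0.157). P4hb, the disulfide isomerase that is the other prolyl hydroxylase subunit, stood at 1.77 on deposited values but at -0.12 on recovered reads. Its deposited values were 153514, 153511 and 55877 in the tamoxifen libraries, against 36122, 36123 and 25192 in the untreated libraries.

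Receptors and proteases were likewise uncalled. Of 17 matrix receptors 16 were tested, with 12 above and 4 below 0 and a median of 0.19. Itgav, an integrin alpha chain, had 1635, 1489 and 1606 in the tamoxifen libraries, against 857, 876 and 856 in the untreated libraries, a tight separation (0.87 ± 0.13 SE, limma adjusted p 0.0692). Sdc4, the proteoglycan syndecan, stood at 1.41 (limma adjusted p 0.0769), the laminin-binding integrin chain Itga3 at 0.62 (limma adjusted p 0.0994) and Sdc1 at 0.47. Itga6 (-0.063) and Itgb1 (-0.26), the chains of a main laminin receptor of embryonic stem cells, had overlapping groups. Of 14 proteases and inhibitors 9 were tested, with 6 above and 3 below 0 and a median of 0.29. Bmp1, a procollagen-processing protease, stood at 0.84 and the lysosomal protease Ctsl at 0.41. The plasminogen activator Plat stood at 1.31 ± 0.53 SE, on 10.3 reads on average, with 1 read in untreated replicate 3.

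**Figure D5:**
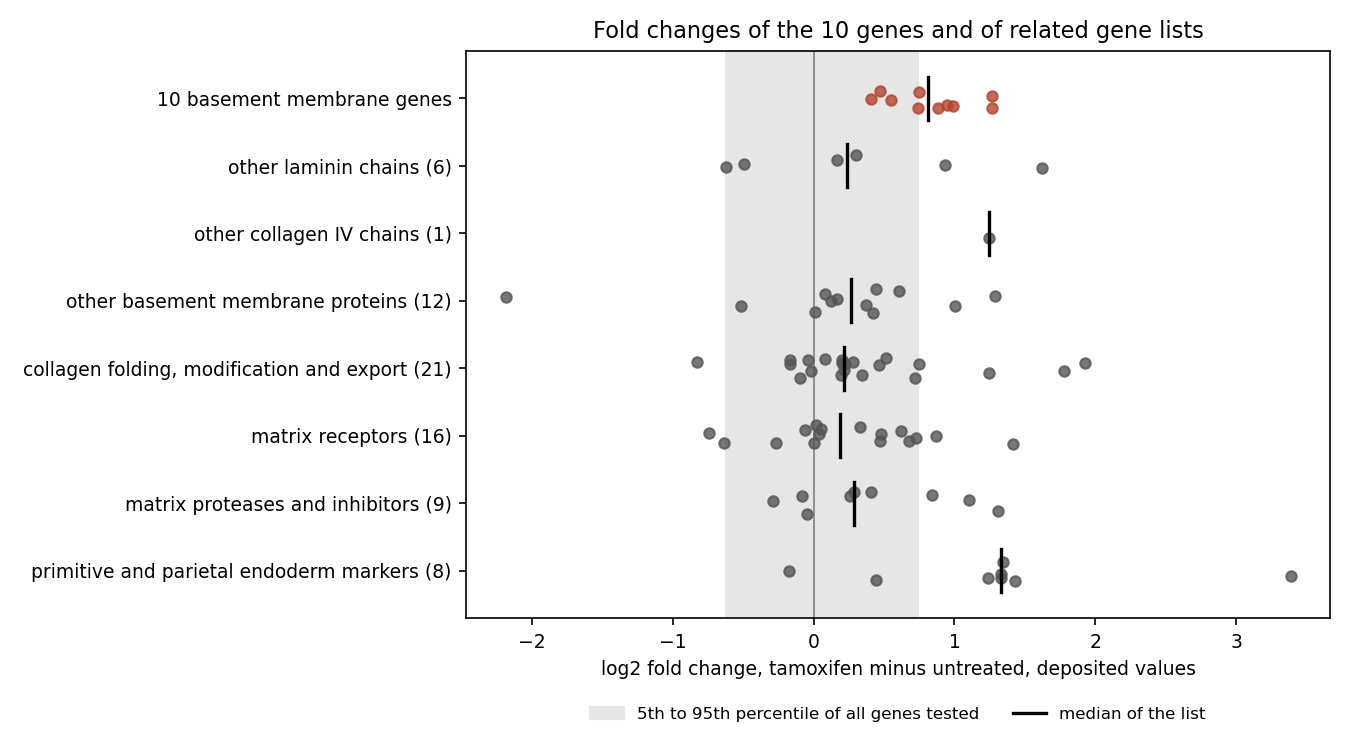
Log2 fold changes (horizontal axis, tamoxifen minus untreated, deposited values) of the 10 genes and of the tested genes of 7 related lists, numbers in brackets. Black lines are medians and the grey band runs from the 5th to the 95th percentile of all genes tested (-0.62 to 0.74). The 10 genes have a median of 0.82, and the medians of the laminin, matrix, folding, receptor and protease lists lie between 0.19 and 0.29. The endoderm markers have a median of 1.33, and Col4a3, the only tested gene of the other collagen IV chains, stands at 1.24.

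Markers of other cell types were set beside these values. Endoderm markers outside the 10 genes summed to 222 to 346 RPM in the tamoxifen libraries, against 56.0 to 170 in the untreated libraries. Their summed deposited values were 10278, 10897 and 12525 in the tamoxifen libraries, against 5370, 7537 and 3687 in the untreated libraries. Of 13 such markers 8 were tested, with 7 above and 1 below 0, a median log2 fold change of 1.33 and 0 called. In 6 of the 8 every tamoxifen value lay above every untreated one, which held for 9.49% of all genes tested. Pdgfra (1.33), Gata4 (1.43), Gata6 (1.24) and Dab2 (1.33) had the smallest p. Hnf4a stood at -0.17 and Amn at 0.44, both with overlapping groups. The part of such cells in the basement membrane values was not tested. Feeder fibroblast markers summed to 13.8 to 49.7 RPM in the tamoxifen libraries, against 12.97 to 41.7 in the untreated libraries. Of the 11 markers 3 were tested, all above 0 with overlapping groups and 0 called. Col1a1 stood at 1.81 ± 0.96 SE (1.40 on reads), Col1a2 at 0.72 and Acta2 at 0.13. Postn had 1, 2 and 2 reads in the tamoxifen libraries and 0 in each untreated one. Col3a1 had 0, 0 and 2 reads in the tamoxifen libraries, against 1, 5 and 1 in the untreated libraries. Col6a1 and Lum had 0 reads in every library. Of the 6 endothelium markers Cdh5, Kdr, Tie1 and Emcn had at most 8 reads in any library, of which Tie1 had 7, 3 and 3 in the tamoxifen libraries, against 1, 2 and 0 in the untreated libraries. Pecam1, which embryonic stem cells express too, had overlapping groups at -0.44, and Tek had 8097, 292 and 283 in the tamoxifen libraries, against 98.0, 88.2 and 78.0 in the untreated libraries, with tamoxifen replicate 1 far above the rest. Of the 6 trophoblast markers Tfap2c (0.59) and Krt7 (3.34 ± 1.56 SE, on 18.5 reads on average) were tested, and the Tfap2c groups overlapped. On recovered reads Tfap2c stood at 0.50 and Krt7 at 1.91, with 1 Krt7 read in untreated replicate 3. Of the untested ones Hand1 had 6, 8 and 10 reads in the tamoxifen libraries, against 0, 1 and 0 in the untreated libraries, and Gata3 had 2, 5 and 11 reads in the tamoxifen libraries, against 2, 2 and 1 in the untreated libraries. Cdx2 had at most 3 reads in any library and Elf5 had 1 read in all. The trophoblast list summed to 47.1 to 68.1 RPM in the tamoxifen libraries, against 22.0 to 34.0 in the untreated libraries. Its summed deposited values were 5311, 3450 and 4771 in the tamoxifen libraries, against 2989, 2104 and 2315 in the untreated libraries. Most reads of this list were of Tfap2c, and the part of the list in the result was not tested. The 8 embryonic stem cell markers had a median of -0.025, with Nanog at 0.57, Zfp42 at -0.26, Pou5f1 at -0.13 and Klf4 at 0.089, none called.

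The genes that ran most like the members were found by the Pearson correlation of log2 values with the members' mean profile over the 6 libraries. That profile was highest in tamoxifen replicate 3 and lowest in untreated replicate 2, with untreated replicate 3 close to it. Hic2, a transcriptional repressor, had r = 0.992, Rbms1, an RNA-binding protein, r = 0.991, and Ap3s1, an adaptor subunit of vesicle transport, r = 0.990. Sypl (0.990), Tmem18 (0.989), Fhl1 (0.988), Pmepa1 (0.987) and Wdr91 (0.986) completed the closest 8. These correlations follow the group difference and the libraries that all genes share, and are given as a description. Pmepa1, a transforming growth factor beta target that dampens that pathway, had 2199, 2666 and 3679 in the tamoxifen libraries, against 1440, 1119 and 1274 in the untreated libraries, and Rbms1 had 1168, 1324 and 1402 in the tamoxifen libraries, against 760, 565 and 564 in the untreated libraries.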

How the data were processed

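Total RNA depleted of ribosomal RNA was sequenced from 6 libraries, 3 per group. The deposited table holds a normalized signal per gene and library. TopHat2, bedtools, DESeq2 and the mm9 build are listed in the submitters' processing notes, and counting and strand rules are not given in the sources used here. Every deposited value above 0 had the form 9.73 × k × (m + 0.1) / (k + 0.1) with whole k and m, and k was taken as the gene's reads, an inference from this form that no label states. A single solution existed for 98.8% of 100305 values, and the gene's other libraries, or the ratio of m to k nearest 1, settled the others. Log2(value + 1) was tested with limma 3.58.1 in R 4.3.3 with an expression trend, for 11839 genes with at least 10 reads on average, under Benjamini-Hochberg adjustment at 0.05. Ratios and sums were tested by exact permutation in scipy 1.17.1. Symbols, coordinates and exon lengths came from GENCODE vM21 on GRCm38 (20273 genes matched), and promoters from RefSeq on GRCm38.p6. The solver and the limma test were checked on simulated data. The members, lists, filter and tests were chosen with earlier results of these data known. Genes named are the members, Ezh2, up to 4 genes of smallest p per list, and the 8 genes most like the members. Some genes that this rule names are not reported here. Itga6, Itgb1, Hnf4a, Amn, the untested collagen IV chains and the marker genes at or near 0 were chosen after their values were seen. Counting error enters the intervals on deposited values only through the spread between libraries, and libraries were not weighted by depth there.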

Additional observations from a re-analysis of the deposited data

How the results depend on the processing

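None of the 150 refits of single members (15 alternatives for each of the 10 genes) gave a call, with limma adjusted p from 0.0603 to 0.744. Filters, trend, block and library scaling cannot move a member's fold by itself; the 9 other alternatives gave 0.24 to 1.43, above 0 in 90 of 90 refits. The number of members called was 0 in each. The members' median was 0.53 on recovered reads and 0.50 with voom weights on those reads, and was 0.74 to 0.84 with 1 library left out. Over all genes, 13 higher and 2 lower calls became 22 and 12 with a filter at mean value 10, 35 and 17 with no filter, and 6 and 0 with pseudocount 10. They became 5 and 0 on recovered reads, 3 and 0 with voom, 3 and 0 without the trend, and from 0 to 1 in either direction with 1 library left out. The replicate block gave 0 and 0, and members at adjusted p 0.227 to 0.471. Same-numbered libraries did not deviate together (r = -0.021, -0.036 and 0.0099 across genes), and no tamoxifen library correlated best with its own number. Such correlations cannot decide whether same-numbered samples were handled together. The ratio Col4a1 to Col4a2 turned to 0.065 on recovered reads and ran from -0.076 to 0.13 with 1 library left out. Lama1 to Lamb1 turned to 0.34 on recovered reads and ran from -0.24 to 0.14, and Nid1 to Nid2 ran from -0.032 to 0.25. The cause of these turns was not tested. With transcript length in place of merged exons, chosen after seeing the data, Lama1 lay above Lamb1 in 0 of 6 libraries. The depth, from 2334368 to 5689576 reads per library, limits genes of low level, and 3 collagen IV chains had under 10 reads on average and no test.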
